A study of Mus musculus with 8 samples.

Results

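The carboxylesterases are a family of serine hydrolases, and 10 of their genes that are expressed in mouse liver (Ces1b, Ces1c, Ces1d, Ces1e, Ces1f, Ces1g, Ces2a, Ces2e, Ces3a and Ces3b) were followed across livers of mice with and without FoxO1 in myeloid cells. Members were taken by symbol from GENCODE M21, matched on the Ensembl identifier of each row of the deposited table of read counts. They are 10 of 46517 genes in the table and 10 of 20 rows whose symbol begins with Ces and a digit. Whole livers came from 4 male MøFoxO1-KO mice (replicates 26, 27, 28 and 29) and 4 male WT littermates (replicates 22, 23, 24 and 25), all C57BL/6, aged 31 weeks, and kept on a NASH diet that began at 6 weeks of age and lasted 25 weeks, with a final fast of 16 hours. MøFoxO1-KO mice carried loxP-flanked FoxO1 alleles and Lyz2-Cre, which is active in macrophages, monocytes and neutrophils of the whole body. WT littermates carried the same loxP-flanked alleles without Cre, so that the floxed alleles, the diet and the fast were common to both groups, and no group on a standard diet was sequenced. The comparison addresses how loss of FoxO1 in myeloid cells relates to gene expression in the steatotic liver.

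Carboxylesterases cleave ester bonds in acylglycerols, cholesteryl esters, drugs and other foreign compounds, and hepatocytes are a main site of their expression. Most of the enzymes lie in the lumen of the endoplasmic reticulum, where Ces1d, long known as triacylglycerol hydrolase, helps to mobilize stored triacylglycerol for the assembly of VLDL. Ces1c is secreted into plasma in mice. The older name Ces3 was used for Ces1d, which is a different gene from Ces3a and Ces3b.

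Total counts ranged from 15253218 to 18025481 per mouse, and the 10 members held between 0.569 and 0.815% of them. Normalized counts are counts divided by the TMM-scaled library size (a scaling in edgeR that sets the bulk of genes equal) relative to its mean over the 8 mice. The targeted gene, Foxo1, had normalized counts of 395, 459, 303 and 459 in WT livers and 429, 302, 416 and 290 in MøFoxO1-KO livers, with a log2 fold change of -0.17 (edgeR, adjusted P = 0.686 by Benjamini-Hochberg). RNA of whole liver is mostly from hepatocytes, which keep Foxo1 in this model, so this value does not check the deletion in myeloid cells. In RNA of a whole organ, fewer cells of a type and less RNA per cell cannot be told apart. MøFoxO1-KO replicate 28 stood apart from the other MøFoxO1-KO mice for Ces1b, Ces1d and Ces1g, and the values of members whose difference it moved are given with and without it. This mouse was singled out after its values for these genes were seen, so fits without it are descriptions. Its normalized counts were within the WT range for Ces1b, Ces1e and Ces1g. It had the highest counts among MøFoxO1-KO mice for Ces1c, Ces1d, Ces1e, Ces1g and Ces2e, and the lowest for Ces1b and Ces3b. Values inside the WT range were not particular to this mouse. Replicate 29 was inside it for Ces1e, Ces2a, Ces2e and Ces3a, replicate 26 for Ces1e and Ces2e, and replicate 27 for Ces2e.

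All 20 genes lie on chromosome 8 of GRCm38, in a pair of clusters. The Ces1 genes are on the minus strand, from the start of Ces1a at 93020214 to the end of Ces1h at 93363676, and the members Ces1b (93056727 to 93080017), Ces1c (93099015 to 93131283), Ces1d (93166068 to 93197838), Ces1e (93201218 to 93229619), Ces1f (93256236 to 93279747) and Ces1g (93302369 to 93337308) follow each other there. The Ces2 and Ces3 genes are on the plus strand and include Ces2a (104734003 to 104741634), Ces2e (104926260 to 104934672), Ces3a (105048599 to 105058414) and Ces3b (105083753 to 105093929). Coding sequences of GENCODE M21 were 95.3% identical between Ces3a and Ces3b, 91.2% between the neighbors Ces1b and Ces1c, 83.3% between Ces2a and Ces2e, 81.6% between Ces1d and Ces1g, and 80.4% between Ces1d and Ces1e.

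Ces1b and Ces1c are also alike upstream of their starts, and this pair of sequences is shown because the genes differed in opposite directions between genotypes. The stretches come from the RefSeq promoter table of GRCm38.p6 and lie outside both genes, with Ces1b at chr8:93080018-93080161 and Ces1c at chr8:93131371-93131530, both on the minus strand. Capitals mark the bases at which they differ and those of Ces1c that have no partner in Ces1b.
Ces1b: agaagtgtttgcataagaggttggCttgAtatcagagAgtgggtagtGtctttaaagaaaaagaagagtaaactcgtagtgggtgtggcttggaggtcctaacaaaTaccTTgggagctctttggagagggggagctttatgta
Ces1c: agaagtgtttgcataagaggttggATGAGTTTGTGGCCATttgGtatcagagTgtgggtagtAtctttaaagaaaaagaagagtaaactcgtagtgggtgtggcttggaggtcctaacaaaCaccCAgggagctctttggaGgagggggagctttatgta
Of 144 aligned bases, 137 were identical (95.1%), and 16 bases of Ces1c stood against a gap. The Ces1b stretch ends at the upstream one of its 2 RefSeq starts, which lie 77 bases apart, and the Ces1c stretch ends 87 bases before the Ces1c start. The next most alike windows were those of Ces1c and Ces1g (70.3% of 202 aligned bases) and of Ces2a and Ces2e (70.2% of 215 aligned bases).

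Of the 10 members, 7 have an entry in the RefSeq promoter table, and Ces1d, Ces1f and Ces3a have none. In the 250 bases before the start, searched on both strands, the letters TATAAA were found for Ces1g, 26 bases before its RefSeq start, and for Ces3b, 30 bases before its start, and in 12.4% of all 32851 windows of the table. The Ces1g match lies within the gene span given above, which reaches upstream of that RefSeq start. GTTAAT, a core of the HNF1 motif, was found for Ces3b at 56 bases (6.43% of all windows), and AGGTCA, a core recognized by many nuclear receptors, for Ces2a at 226 bases (14.0% of all windows). TGTTTAC, a forkhead core, was in none of the 7 members' windows and in 3.17% of all windows. A match of letters is a description of the window and not a site.

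Levels of different genes were compared as normalized counts per kilobase of summed exon length and per 1e6 library counts. In WT livers, Ces1c was the most abundant member (1052 ± 118, SD, n = 4), followed by Ces3a (784 ± 69.4, SD, n = 4) and Ces1d (450 ± 112, SD, n = 4), and the ranges of these 3 per-length levels did not overlap each other. The per-length levels of Ces1g (157 ± 66.9, SD, n = 4), Ces1f (154 ± 23.9), Ces1e (102 ± 23.8), Ces2a (99.9 ± 24) and Ces2e (99.2 ± 32) came next, and neighbors in this order overlapped. Ces1b (49.2 ± 5.80) and Ces3b (37.6 ± 17.4) had the lowest levels in WT livers, and their ranges overlapped too. In MøFoxO1-KO livers Ces3a came first (1054 ± 178, SD, n = 4), before Ces1c (755 ± 71.3), Ces1d (361 ± 150), Ces1f (204 ± 13.5), Ces1b (166 ± 85.9), Ces2a (152 ± 24.2), Ces2e (115 ± 26.3), Ces3b (97.6 ± 27.8), Ces1e (83.2 ± 23) and Ces1g (59.4 ± 69.2). There the range of Ces1d lay apart from those of Ces1c and Ces1f, and all other neighbors in the order overlapped. These orders and gaps hold for summed exon length. The longest protein-coding transcript is much shorter for Ces1f (1926 against 3285 bases) and Ces1c (1828 against 2323 bases). Its use would raise their levels relative to Ces3a (2046 against 2049 bases) and could change the order.

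The 10 members differed from each other in direction, and none of them passed the threshold for a call. A gene was called at a Benjamini-Hochberg adjusted P under 0.05 in edgeR's quasi-likelihood test, adjusted over all 13278 genes tested, together with an absolute log2 fold change over 1.5. All 10 members passed the filter on low counts, 0 were called, and 0.188% of all tested genes were called. At an unadjusted edgeR P under 0.05, 5 members were higher (Ces1b, Ces1f, Ces2a, Ces3a and Ces3b), against 8.65% of all tested genes, and 1 was lower (Ces1c), against 8.06% of all tested genes. The normalized counts of all MøFoxO1-KO mice lay above those of all WT mice for 2 members (Ces1f, under TMM scaling but not by total counts, and Ces3b), against 5% of tested genes, and below them for 1 member (Ces1c), against 4.71% of tested genes. The median log2 fold change was 0.31 over the members and -0.01 over all tested genes, and the median absolute log2 fold change was 0.45 over the members and 0.22 over all tested genes. The Wald test of DESeq2 gave an adjusted P under 0.05 for 3 members (Ces1b, Ces1c and Ces3b), against 4.42% of genes, of which Ces1b also passed the limit on the fold change, against 1.09% of genes. Without MøFoxO1-KO replicate 28, 2 members were called (Ces1b and Ces1g), against 0.608% of the 13490 genes then tested. Because that mouse was singled out by its values for these same members, the 2 calls are a description.

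**Figure D1:**
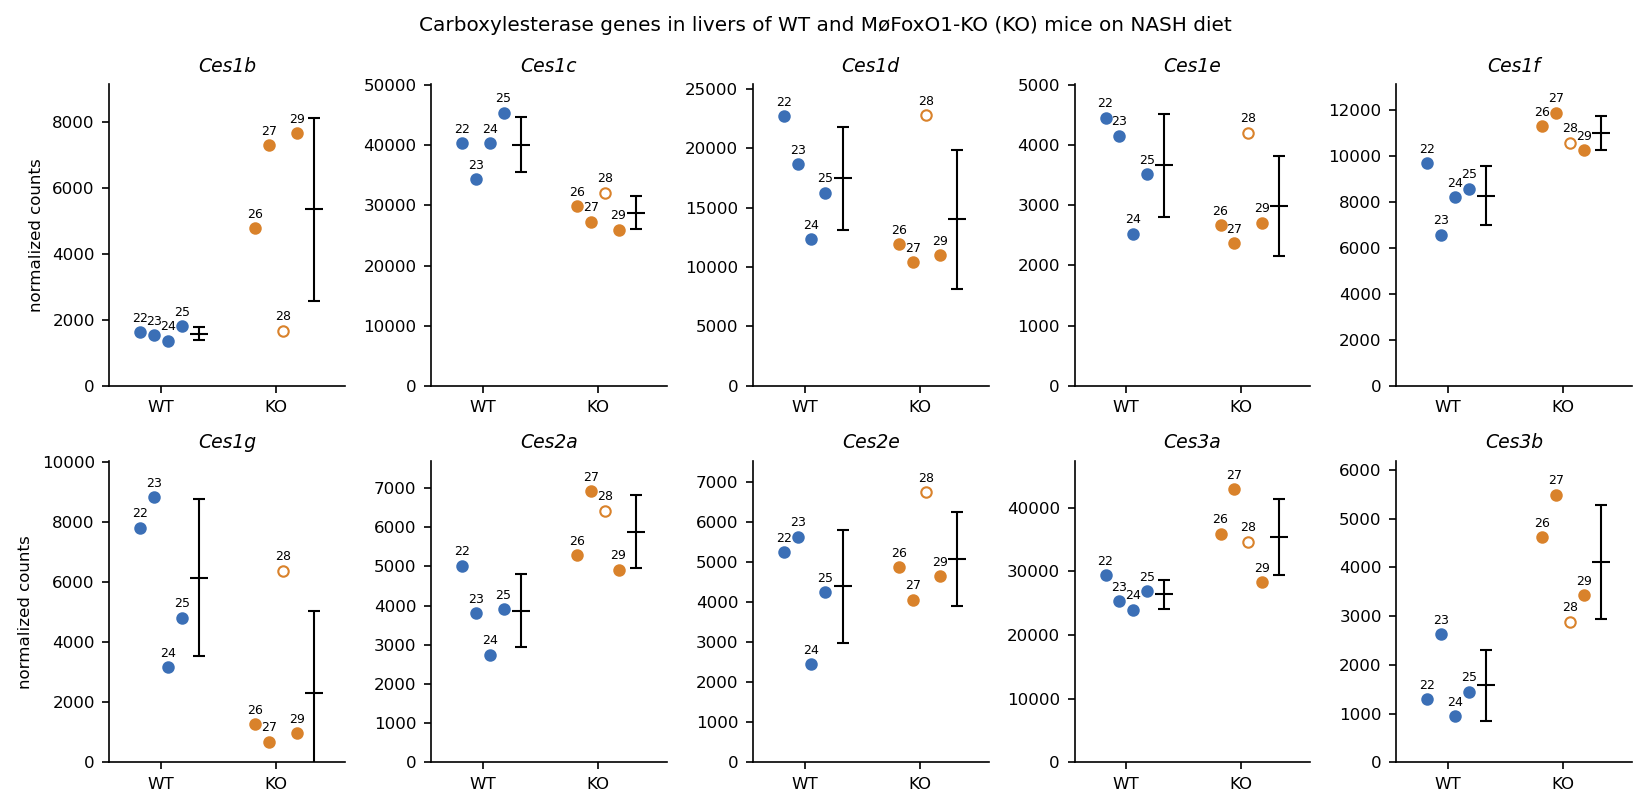
Normalized counts (y axis, linear from 0) of the 10 carboxylesterase genes in each liver, with WT mice in blue and MøFoxO1-KO (KO) mice in orange, replicate numbers above the points, and the mean ± SD of each group (n = 4) as a black mark; the SD of Ces1g in KO mice reaches below 0 and is clipped there. The open point is KO replicate 28, which sat at 1674 for Ces1b and 6380 for Ces1g, both inside the WT range.

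Ces1b had the largest fold difference of the 10 members in the edgeR fit over the 8 mice, whereas limma-voom put Ces1g first (-1.91, against 1.55 for Ces1b) and a fit with 1 surrogate variable put Ces3b first (1.85, against 1.61 for Ces1b). Normalized Ces1b counts (ENSMUSG00000078964) were 1625, 1540, 1364 and 1814 in WT livers and 4777, 7303, 1674 and 7659 in MøFoxO1-KO livers. MøFoxO1-KO replicates 26, 27 and 29 had more than any WT mouse, and replicate 28 lay within the narrow WT range. The means were 1586 ± 187 and 5354 ± 2768 (SD, n = 4; exact two-sided permutation test, P = 0.0571), and 4 mice against 4 allow no P under 0.0286 in this test. Ces1b had a log2 fold change of 1.76 ± 0.38 (SE; edgeR, adjusted P = 0.0993 by Benjamini-Hochberg). Without replicate 28 it was 2.07 ± 0.19 (SE; edgeR, adjusted P = 0.00455 by Benjamini-Hochberg). That mouse was singled out by its values for these genes, so this P is a description. Leaving out any other single mouse gave 1.53 to 1.82, with edgeR adjusted P of 0.135 to 0.309.

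Ces1c, the neighbor of Ces1b and the source of the plasma carboxylesterase, differed in the opposite direction. Normalized Ces1c counts (ENSMUSG00000057400) were 40295, 34348, 40302 and 45389 in WT livers and 29855, 27271, 32065 and 25962 in MøFoxO1-KO livers. All 4 MøFoxO1-KO mice, replicate 28 included, were below all 4 WT mice. The means were 40084 ± 4515 and 28788 ± 2718 (SD, n = 4; exact two-sided permutation test, P = 0.0286, the smallest possible here). Ces1c had a log2 fold change of -0.48 ± 0.14 (SE; edgeR, adjusted P = 0.157 by Benjamini-Hochberg). Without replicate 28 it was -0.52 (edgeR, adjusted P = 0.146 by Benjamini-Hochberg).

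Ces3b and Ces3a, the pair with the most similar coding sequences, were both higher in MøFoxO1-KO livers, Ces3b by the larger factor. Normalized Ces3b counts (ENSMUSG00000062181) were 1296, 2633, 947 and 1453 in WT livers and 4613, 5491, 2886 and 3433 in MøFoxO1-KO livers, without overlap. The means were 1582 ± 732 and 4106 ± 1171 (SD, n = 4; exact two-sided permutation test, P = 0.0286). Ces3b had a log2 fold change of 1.38 ± 0.31 (SE; edgeR, adjusted P = 0.102 by Benjamini-Hochberg). The value was 1.74 without WT replicate 23, the highest WT mouse for Ces3b (edgeR, adjusted P = 0.0300 by Benjamini-Hochberg), and 1.53 without MøFoxO1-KO replicate 28 (adjusted P = 0.0668).

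Normalized Ces3a counts (ENSMUSG00000069922) were 29398, 25277, 23973 and 26849 in WT livers and 35910, 42875, 34635 and 28281 in MøFoxO1-KO livers. MøFoxO1-KO replicate 29 was below WT replicate 22, and the other 3 MøFoxO1-KO mice were above all WT mice. Ces3a had a log2 fold change of 0.43 ± 0.15 (SE; edgeR, adjusted P = 0.220 by Benjamini-Hochberg). The exact two-sided permutation test gave P = 0.0571 under TMM scaling and 0.114 by total counts. The per-length level of Ces3a was 12 to 31.7 times that of Ces3b in WT livers and 9.75 to 15.0 times in MøFoxO1-KO livers.

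Ces1g, a triacylglycerol lipase whose loss is known to cause hepatic steatosis in mice, was the member with the widest spread among MøFoxO1-KO livers. Normalized Ces1g counts (ENSMUSG00000057074) were 7808, 8831, 3168 and 4814 in WT livers and 1266, 689, 6380 and 973 in MøFoxO1-KO livers. Replicates 26, 27 and 29 were below every WT mouse, and replicate 28 was above WT replicates 24 and 25. The coefficient of variation of Ces1g was 117% in MøFoxO1-KO livers, where replicate 28 lay far from the others, and 42.6% in WT livers, below the 46.3% of Ces3b. The exact two-sided permutation test gave P = 0.0857. Ces1g had a log2 fold change of -1.40 ± 0.66 (SE; edgeR, adjusted P = 0.326 by Benjamini-Hochberg). Without replicate 28 it was -2.64 ± 0.38 (SE; edgeR, adjusted P = 0.0195 by Benjamini-Hochberg). That mouse was singled out by such values, so this P is a description. Leaving out any other single mouse gave -1.62 to -1.10, with edgeR adjusted P of 0.305 to 0.576.

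Ces1d, the triacylglycerol hydrolase, and Ces1e, known as egasyn for its binding of beta-glucuronidase in the endoplasmic reticulum, had nearly the same profile. Normalized Ces1d counts (ENSMUSG00000056973) were 22675, 18663, 12333 and 16247 in WT livers and 11943, 10414, 22754 and 11013 in MøFoxO1-KO livers. Normalized Ces1e counts (ENSMUSG00000061959) were 4452, 4153, 2522 and 3509 in WT livers and 2667, 2368, 4203 and 2710 in MøFoxO1-KO livers. For both genes replicate 28 was the highest MøFoxO1-KO mouse and the groups overlapped (exact two-sided permutation test, P = 0.314 for each). The log2 fold change was -0.32 ± 0.28 (SE) for Ces1d (edgeR, adjusted P = 0.607 by Benjamini-Hochberg) and -0.29 ± 0.22 (SE) for Ces1e (adjusted P = 0.551). Without replicate 28 the log2 fold changes were -0.64 and -0.49 (edgeR, adjusted P = 0.175 and 0.252 by Benjamini-Hochberg).

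Ces1f, another hydrolase of the Ces1 cluster that acts on triacylglycerol, was higher in MøFoxO1-KO livers by a small factor. Normalized Ces1f counts (ENSMUSG00000031725) were 9705, 6592, 8223 and 8591 in WT livers and 11315, 11891, 10601 and 10268 in MøFoxO1-KO livers. The groups did not overlap under TMM scaling, and replicate 28 was like the other MøFoxO1-KO mice. Scaled by total counts instead, replicate 29 (9589) lay below WT replicate 22 (10173), and the exact two-sided permutation test gave P = 0.0571. The means were 8278 ± 1288 and 11018 ± 727 (SD, n = 4; exact two-sided permutation test under TMM scaling, P = 0.0286). Ces1f had a log2 fold change of 0.41 ± 0.14 (SE; edgeR, adjusted P = 0.204 by Benjamini-Hochberg).

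Ces2a and Ces2e belong to the branch of the family that prefers esters with a small acyl group and a large alcohol group. Normalized Ces2a counts (ENSMUSG00000055730) were 5013, 3808, 2741 and 3902 in WT livers and 5289, 6907, 6419 and 4913 in MøFoxO1-KO livers, and only replicate 29 of the MøFoxO1-KO mice lay within the WT range. Ces2a had a log2 fold change of 0.61 ± 0.19 (SE; edgeR, adjusted P = 0.182 by Benjamini-Hochberg). Normalized Ces2e counts (ENSMUSG00000031886) were 5244, 5631, 2456 and 4247 in WT livers and 4867, 4061, 6753 and 4644 in MøFoxO1-KO livers, where replicate 28 was above all WT mice and the other 3 were among them. For Ces2e it was 0.21 ± 0.25 (SE; edgeR, adjusted P = 0.724 by Benjamini-Hochberg), and 0.06 without MøFoxO1-KO replicate 28 and 0.01 without WT replicate 24. The exact two-sided permutation test gave P = 0.0571 for Ces2a (0.0857 by total counts) and 0.514 for Ces2e.

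**Figure D2:**
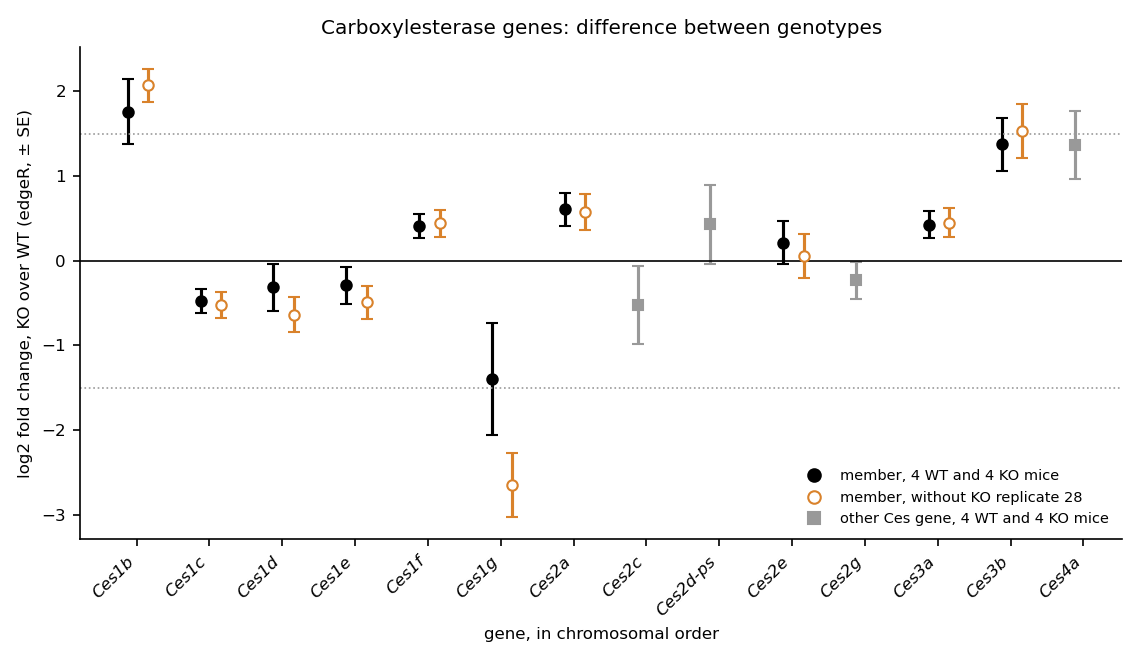
Log2 fold change of MøFoxO1-KO over WT livers (y axis, edgeR, ± SE) for the 10 members (black) and the other 4 tested Ces genes (gray squares), in chromosomal order on the x axis, with open orange points for the members without MøFoxO1-KO replicate 28 and dotted lines at the fold change limit of 1.5 in each direction. Ces1b moved from 1.76 to 2.07 and Ces1g from -1.40 to -2.64 when replicate 28 was left out.

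The summed per-length level of the 10 members differed by less than the spread between mice, at 2984 ± 318 in WT and 3047 ± 311 in MøFoxO1-KO livers (SD, n = 4). The summed per-length level of the Ces1 members was 1963 ± 203 in WT livers and 1629 ± 219 in MøFoxO1-KO livers, that of the Ces2 members 199 ± 52.9 and 267 ± 37.9, and that of the Ces3 members 822 ± 69.7 and 1151 ± 200 (SD, n = 4). Ces1 and Ces2 sums overlapped between groups. Under TMM scaling, every MøFoxO1-KO mouse had a higher Ces3 sum (923 to 1406) than every WT mouse (736 to 905). Scaled by total counts, the Ces3 sum of replicate 29 lay below that of WT replicate 22. Their counts were then 26411 against 30818 for Ces3a and 3206 against 1358 for Ces3b. Ces1c made up 31.6, 30.7, 40.9 and 38.7% of the summed level in WT livers and 26.3, 22.4, 24.9 and 25.7% in MøFoxO1-KO livers. Ces3a made up 26.1, 25.6, 27.6 and 26% in WT livers and 35.8, 40.0, 30.5 and 31.8% in MøFoxO1-KO livers. Neither share overlapped between groups, and nor did that of Ces2a (2.74 to 3.87% in WT and 4.59 to 5.59% in MøFoxO1-KO livers). The shares of all other members overlapped. Shares of a sum depend on each other, so that a lower share of Ces1c raises those of other members. No background over all genes was computed for shares.

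Within each mouse, the ratio of the Ces3a level to the Ces1c level does not depend on the scaling of libraries. It was 0.827, 0.834, 0.674 and 0.671 in WT livers and 1.36, 1.78, 1.22 and 1.24 in MøFoxO1-KO livers. By summed exon length, Ces1c was therefore the more abundant of the pair in all 4 WT mice and Ces3a in all 4 MøFoxO1-KO mice, replicate 28 included. Which gene leads within a mouse depends on the length used. The summed exon length of Ces1c is 2323 bases and its longest protein-coding transcript 1828, against 2049 and 2046 for Ces3a. Levels by transcript length were not computed. The ratio of the Ces1b level to the Ces1g level was 0.253, 0.212, 0.523 and 0.458 in WT livers and 4.59, 12.9, 0.319 and 9.57 in MøFoxO1-KO livers, where replicate 28 had a ratio inside the WT range. Both ratios were chosen after the values were seen and are given as descriptions.

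**Figure D3:**
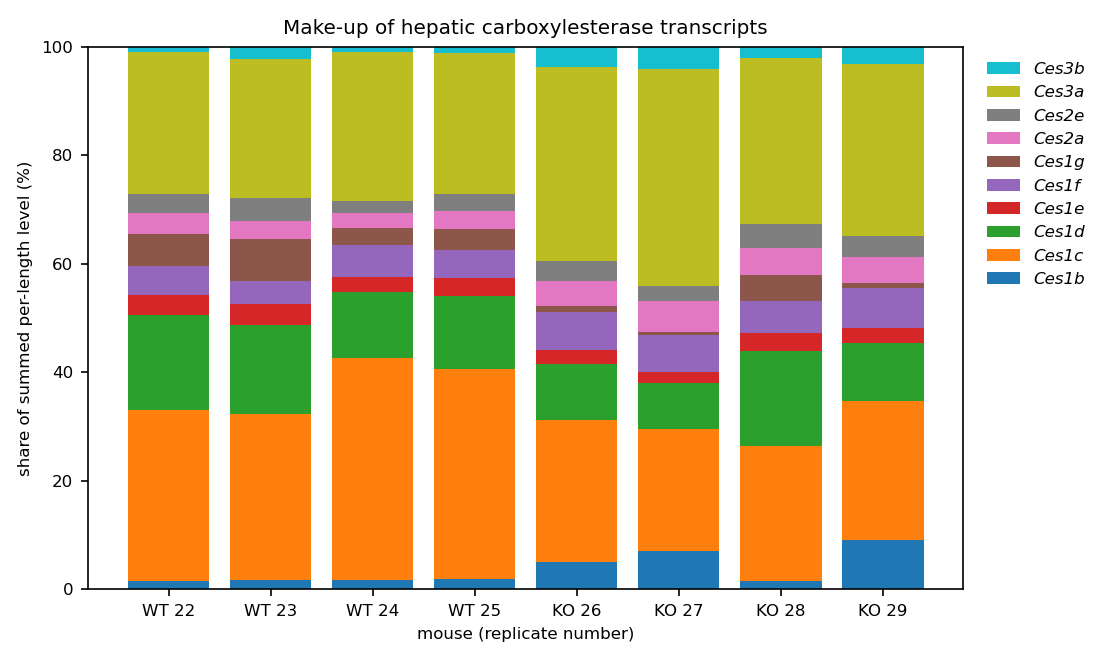
Share of each gene in the summed per-length level of the 10 members (y axis, percent) in each liver (x axis, replicate number). The Ces1c share was 30.7 to 40.9% in WT mice and 22.4 to 26.3% in KO mice, and the Ces3a share 25.6 to 27.6% in WT mice and 30.5 to 40.0% in KO mice.

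The members were compared by the root mean square difference of their log2 normalized counts over the 8 mice, each gene centered on its own mean, so that a small value means like profiles. Of the 45 pairs, Ces1d and Ces1e were the most alike (0.12), followed by Ces1f and Ces3a (0.15) and by Ces2a and Ces3a (0.20). Ces1b and Ces1g were the least alike (2.31), and the neighbors Ces1b and Ces1c, with their similar coding and upstream sequences, were at 1.23. Ces3a and Ces3b, the closest pair in sequence, were at 0.66. WT mice also varied, with replicate 24 lowest among WT mice for 8 of the 10 members.

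**Figure D4:**
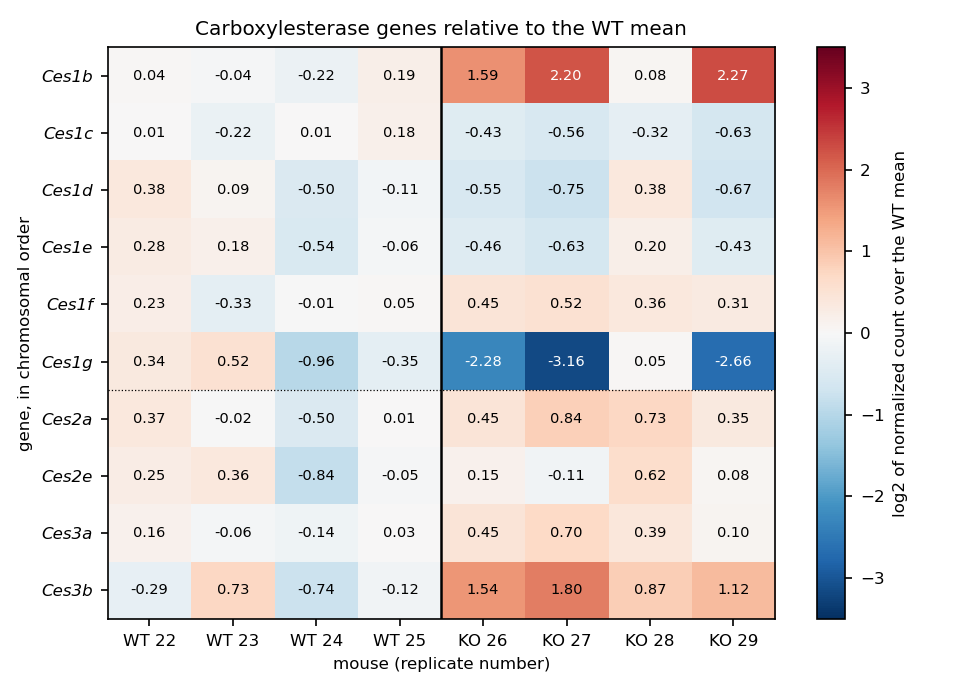
Log2 of each normalized count over the WT mean of the gene (color and printed value), for the 10 members in chromosomal order (rows; the dotted line separates the Ces1 cluster from the Ces2 and Ces3 genes) and the 8 livers (columns). KO replicates 26, 27 and 29 share high Ces1b (1.59 to 2.27) and low Ces1g (-3.16 to -2.28), and KO replicate 28 is at 0.08 and 0.05.

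Markers of the cell types that whole liver can hold were set beside these values. The macrophage markers were Adgre1, Cd68, Csf1r, Clec4f, Vsig4, Cd5l, Timd4, Lyz2 and Marco. Of these 9 macrophage markers, 5 were higher in MøFoxO1-KO livers and 0 were lower at an unadjusted edgeR P under 0.05, against 8.65 and 8.06% of all tested genes. Their summed normalized counts were 4505, 2946, 5028 and 4127 in WT livers and 5098, 9833, 3211 and 14479 in MøFoxO1-KO livers, so that replicates 27 and 29, which had the most Ces1b, were above the WT range and replicate 28 was inside it. Replicate 26, with high Ces1b, was just above the WT range, and without Marco its sum was 4360, inside the WT range of 2941 to 4947. Among these markers, Lyz2, whose promoter drives Cre in this model, was lowest in replicate 27, where the sum was high. Its counts were 646, 384, 1268 and 705 in WT livers and 431, 83, 147 and 913 in MøFoxO1-KO livers. By tissue staining, the paper reported less macrophage infiltration in MøFoxO1-KO livers on the NASH diet. The marker sum is RNA of whole liver and measures neither infiltration nor stained cells, so that result was not tested. The list includes Timd4, a receptor of resident liver macrophages. Its largest counts in replicate 29 were 4194 for Cd5l, 2847 for Clec4f and 1893 for Marco. The other markers there had 271 (Adgre1) to 1254 (Csf1r) counts. The part of macrophages in the Ces1b difference was not tested. Of 8 hepatocyte markers, 1 was higher and 0 were lower, and their sum was 1039161 to 1485909 in WT livers and 1205367 to 1789499 in MøFoxO1-KO livers, so the tissue had the defining markers of liver. Adipoq, Plin1, Lep and Retn, markers of adipocytes, had at most 3 counts in any mouse, whereas Cfd, which adipocytes also make, had 2505, 2084, 152 and 385 counts in WT livers and 2, 10, 4756 and 0 in MøFoxO1-KO livers, and was thus high or low in largely the same mice as Ces1g. The enterocyte genes Sis and Alpi were at 0 counts in all mice, as were the pancreas genes Cel, Pnlip, Prss2 and Cpa1, and Lct had at most 3 counts. Other genes of these lists had counts. The adipocyte-list gene Fabp4 had 143 to 316 counts, the enterocyte-list genes Fabp2 and Vil1 had 2497 to 3417 and 2 to 9, and the pancreas-list gene Cela1 had 177 to 258 counts in WT livers and 266 to 716 in MøFoxO1-KO livers, with a log2 fold change of 1.40.

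**Figure D5:**
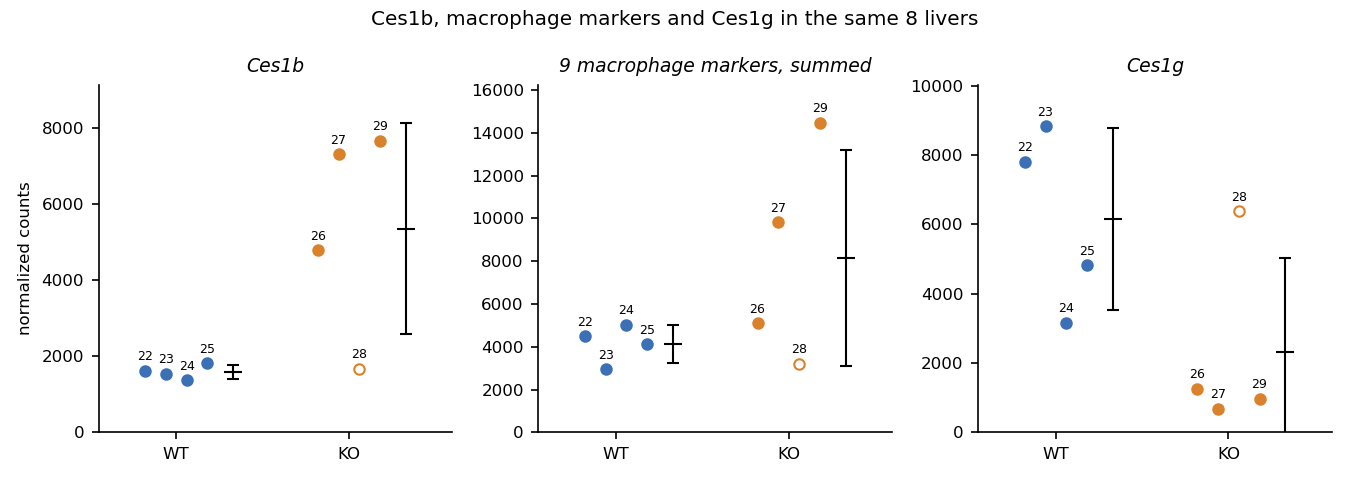
Normalized counts (y axes, linear from 0) of Ces1b, of 9 macrophage markers summed, and of Ces1g in the same 8 livers, drawn as in the plot of all members, with the mean ± SD of each group (n = 4). KO replicates 27 and 29 had the highest Ces1b (7303 and 7659) and the highest marker sums (9833 and 14479), and KO replicate 28 was inside the WT range in all 3 panels.

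The 10 other Ces genes each had a lower mean count than any member. Enough counts for a test were found for 4 of them. Ces2c, a hydrolase of triacylglycerol in intestine and liver, had normalized counts of 479, 610, 138 and 315 in WT livers and 394, 334, 238 and 106 in MøFoxO1-KO livers (log2 fold change -0.52; edgeR, adjusted P = 0.611 by Benjamini-Hochberg). Ces2g had a log2 fold change of -0.23 (adjusted P = 0.635) and the pseudogene Ces2d-ps of 0.43 (adjusted P = 0.686). Ces4a had 9, 8, 10 and 10 counts in WT livers and 19, 26, 33 and 10 in MøFoxO1-KO livers, with a log2 fold change of 1.36 at these low counts (edgeR, adjusted P = 0.161 by Benjamini-Hochberg). Ces2f and Ces5a had 0 counts in all 8 mice, which allows up to 3 counts in each library, a limit that covers counting error only.

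Near-identical copies can share reads, and how multiply matching reads were handled is not given in the sources used here. In GENCODE M21 transcripts, 30.9% of all windows of 50 bases in Ces3a and 26.1% in Ces3b also occurred in another gene. The share was 22.2% for Ces2a, mostly with the pseudogene Gm7208, 17.0% for Ces1c and 11.6% for Ces1b. At 100 bases it was 10.7% for Ces2a, 9.09% for Ces3a, 7.68% for Ces3b, 1.39% for Ces1c and 1.29% for Ces1b, and 0 for the other 5 members. Counts of Ces3a, Ces3b and Ces2a are therefore less certain than those of Ces1d, Ces1e, Ces1f, Ces1g and Ces2e.

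Other hydrolases of lipid and drug esters were compared as lists. Of 24 genes of neutral lipid hydrolysis, 20 were tested, with a median log2 fold change of -0.12. At an unadjusted edgeR P under 0.05, 2 of them were higher, namely Aadac, an esterase of the endoplasmic reticulum that acts on arylacetamides and acylglycerols (log2 fold change 0.44), and Pnpla7, a lysophospholipase (0.61). These are 2 of 20, against 8.65% of all tested genes. In the same list 4 were lower, against 8.06% of all tested genes, namely Pnpla2, the adipose triglyceride lipase (-0.32), Mgll, the monoacylglycerol lipase (-0.46), Abhd6 (-0.37) and Ddhd2 (-0.39). Lipe, the hormone-sensitive lipase, and Lipc, the hepatic lipase, had log2 fold changes of 0.03 and 0.23. None of the 20 had an adjusted P under 0.05.

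Of 24 other ester and amide hydrolases, all were tested, with a median log2 fold change of 0.00 and with 12 values on either side of 0. At an unadjusted edgeR P under 0.05, against the same 8.65% higher and 8.06% lower of all tested genes, 4 were higher (Aadac again, Ephx2, the soluble epoxide hydrolase, at 0.41, Naaa at 0.85 and Lypla2 at 0.26), and 3 were lower (Bche, butyrylcholinesterase, at -0.62, and the acyl-CoA thioesterases Acot2 at -1.12 and Acot4 at -0.35). None had an adjusted P under 0.05.

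Of 18 transcription factors listed here as candidate regulators of carboxylesterase genes, Foxo1 included, 13 had a negative log2 fold change and the median was -0.16. Whether each acts on these genes was not tested. At an unadjusted edgeR P under 0.05, 1 was higher and 1 lower, against 8.65 and 8.06% of all tested genes. Pparg was the lower one, with normalized counts of 480, 466, 532 and 289 in WT livers and 8.63, 81.2, 257 and 51.5 in MøFoxO1-KO livers (log2 fold change -2.14; edgeR, adjusted P = 0.181 by Benjamini-Hochberg). Replicate 28 again had the value nearest to the WT livers. Nr1h3, which encodes LXR alpha, was the higher one (log2 fold change 0.31, adjusted P = 0.212). Hnf4a, a regulator of many hepatocyte genes, had a log2 fold change of -0.32 (edgeR, adjusted P = 0.312 by Benjamini-Hochberg), and the drug sensors Nr1i2 (PXR) and Nr1i3 (CAR) had log2 fold changes of -0.16 and -0.03.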

How the data were processed

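Liver RNA of 8 mice was sequenced after poly(A) selection. The authors deposited whole-number read counts per Ensembl gene, without normalization. The submitters' processing notes name STAR, featureCounts and mm10 without versions, and read length and strand setting are not given in the sources used here. Members and gene lists were chosen with earlier results of these data known.

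Genes were filtered with filterByExpr (minimum count 10, minimum total 15), scaled by TMM and tested with edgeR 4.0.16 (R 4.3.3, quasi-likelihood test, no covariates), with Benjamini-Hochberg adjustment over 13278 genes. The common biological coefficient of variation was 0.256. Normalized counts of members were compared by exact two-sided permutation tests (scipy 1.17.1). Alternatives were DESeq2 1.42.0, its size factors, upper-quartile scaling, limma-voom 3.58.1, the robust fit, no filter, a minimum of 10 counts in each mouse, 1 surrogate variable (sva 3.50.0) and leaving out each mouse. The DESeq2 count at the adjusted P alone was added after seeing the data. Named genes were all members, tested Ces genes, and list genes at an unadjusted P under 0.05 or fixed by name. Per-length levels used the summed exon length in the table. Start and end of 8 of the 10 members were the same in GENCODE M21. Coding and upstream sequences were aligned with Biopython 1.88. The labels give no batch.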

Additional observations from a re-analysis of the deposited data

Results flagged for a closer look

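In MøFoxO1-KO livers, replicate 28 stood far from the other 3 mice for Ces1g, where the gap to the next mouse was 0.899 of the whole range of the group, and for Ces1d, where it was 0.876, both above Dixon's critical value for 4 samples. It had 6380 normalized Ces1g counts and 22754 normalized Ces1d counts, against 689 to 1266 and 10414 to 11943 in the other MøFoxO1-KO mice. Among the 20 groups tested (10 genes in each genotype) these 2 were past that value. Chance alone puts about 1 in 20 there if the counts are normally distributed, which 4 mice cannot show. The gaps were taken on counts without a log transform. As log2 over the WT mean, replicate 28 was at 0.05 for Ces1g, against -3.16 to -2.28 in the other MøFoxO1-KO mice. For Ces1d it was at 0.38, against -0.75 to -0.55. On that scale neither gap reaches the critical value, so both flags hold for untransformed counts only.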

How the results depend on the processing

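No paired analysis was possible because the replicate numbers of the groups (22 to 25 and 26 to 29) have none in common. Over all genes, 25 were called, against 144 with DESeq2, 13 with limma-voom, 120 without the filter on low counts, and 3 to 82 when each mouse was left out (82 without MøFoxO1-KO replicate 28, 3 without WT replicate 25). Of the members, 0 were called, against 1 with DESeq2 (Ces1b), 1 without the filter (Ces1b), 1 with 1 surrogate variable (Ces3b) and 0 to 2 when each mouse was left out (2 without MøFoxO1-KO replicate 28, Ces1b and Ces1g, and 1 without WT replicate 23, Ces3b). DESeq2 at the adjusted P alone gave 3. At an unadjusted P, 1 member was lower, against 2 with limma-voom, 2 without the filter and 1 to 4 when each mouse was left out (4 without MøFoxO1-KO replicate 28, 2 without WT replicate 24). Members without overlap numbered 3 (9.71% of all tested genes), 2 when scaled by total counts (Ces1c and Ces3b, 13.6% of genes), and 3 to 6 when each mouse was left out, where 11.4 to 16.9% of genes did not overlap (6 members and 16.2% of genes without MøFoxO1-KO replicate 28, 5 and 13.2% with WT replicate 22 left out, 5 and 12.4% with MøFoxO1-KO replicate 29 left out). Apart from the smaller number of mice in the last kind of alternative, the cause was not tested. No member changed direction in any of these fits, and 154 of the 160 alternative fits of single members stayed on the same side of the threshold. Scaling by total counts lowered the median log2 ratio of all genes by 0.15, and relative to that shift the members' directions held. Whole liver, 4 mice a group and a whole-body myeloid deletion limit these values.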

Other observations

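The genes whose profiles over the 8 mice were most like those of the members were looked up among tested genes with a mean of at least 50 normalized counts, by the same root mean square difference of centered log2 counts. This was chosen after the values were seen and is given as a description. Timd4, a receptor of resident liver macrophages, was the most like Ces1b (0.22), with normalized counts of 59.0, 47.2, 50.8 and 55.8 in WT livers and 157, 299, 69.3 and 377 in MøFoxO1-KO livers. Zfp868 (0.22), the hepatocyte-secreted Fgl1 (0.41) and Cela1 (0.41) followed.

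Slc18a1, a vesicular monoamine transporter, was the most like Ces1g (0.42), followed by Me1, the cytosolic malic enzyme (0.53), with normalized counts of 2358, 3513, 2216 and 2042 in WT livers and 359, 244, 1350 and 594 in MøFoxO1-KO livers, and by Slc39a2 (0.54). For Ces3b the nearest were Neb (0.22) and Serpina3k (0.33), a secreted serpin. For Ces1d and Ces1e the nearest gene among all those compared was the other of the pair (0.12).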
